A study of Homo sapiens with 2 samples.

Results

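RUNX1 binding was examined on the distal long arm of chromosome 5, taken as every peak with its summit beyond 120 Mb (GRCh38). This segment held 521 of the 926 peaks of the chromosome and of the 13591 peaks of the whole list, which is 3.83% of the list. The segment was selected on measured values: it was called gained because the input DNA at its peaks lay above the genome-wide level, and no copy number was measured. The peaks were called from that same measurement, so their number, pileup, fold enrichment and input level are given as descriptions. No test was made on them.

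The data came from 1 RUNX1 chromatin immunoprecipitation followed by sequencing (ChIPseq) library and 1 input DNA library, both from MCF10A cells, an immortalised, non-tumorigenic breast epithelial cell line of human origin. The cells of both libraries were deleted for RUNX1, carried a lentivirus that expresses RUNX1 on induction, and had received doxycycline at 1 µg/ml for 24 hours. The RUNX1 that was pulled down was therefore the introduced protein, and neither library came from uninduced or parental cells. The labels do not say whether the RUNX1-deleted line was 1 clone. After removal of duplicates the ChIP library held 80338845 tags and the input library 87410774. Neither library had a replicate, and all intervals are 95% intervals that cover counting error only. A list of binding sites carries no expression values, so the epithelial identity of the cells and the loss of their own RUNX1 could not be checked here.

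RUNX1 is a DNA-binding transcription factor that acts together with its partner CBFB, and RUNX proteins recognise a short DNA motif with the core TGTGGT. It is best known as a regulator of blood cell formation, and in the breast it is expressed in epithelium and is lost in a subset of tumors. The distal long arm of chromosome 5 carries the cytokine cluster around CSF2, the clustered protocadherins, and many genes of receptor signalling and of the extracellular matrix.

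Promoter sequences were searched first, since they are the only stretches of the segment for which reference sequence was used here. Windows from 250 bases before to 50 bases after annotated start sites were taken from RefSeq (GRCh38.p14). A summit of the segment lay in 13 of these windows, which belong to 12 genes: MARCHF3, CSF2, LOC105378198, FGF1, RNF145, PTTG1, DUSP1, LOC105377743, FAF2, LOC124901147, MGAT1 and TRIM7-AS2. The motif TGTGGT, read on either strand (ACCACA on the other), was in the window of 6 of the 12 genes (Wilson interval 25.4 to 74.6%). Counted by gene in the same way, 15.6% of all 27305 genes with a window held it, 18.1% of the 700 genes of the segment, and 36.1% of the 416 genes anywhere with a summit in a window. Counted by window it was 7 of 13, against 13.1% of all 35116 windows. The 3 stretches shown next are the promoter of the cytokine gene CSF2, the start of the lncRNA LOC124901147 with the tallest pileup of the 12, and MARCHF3, where a summit lay beside a start without the motif. Each is written 5′ to 3′ on the strand of its gene and ends at the base before the start site. Capitals mark TGTGGT or the variant TGCGGT in either orientation.
CSF2, chr5:132073539-132073788, plus strand: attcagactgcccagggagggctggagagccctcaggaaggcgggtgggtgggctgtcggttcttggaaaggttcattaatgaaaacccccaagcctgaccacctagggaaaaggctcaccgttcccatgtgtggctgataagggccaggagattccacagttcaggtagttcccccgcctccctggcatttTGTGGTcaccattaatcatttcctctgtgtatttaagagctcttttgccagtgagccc
LOC124901147, chr5:178078271-178078520, minus strand: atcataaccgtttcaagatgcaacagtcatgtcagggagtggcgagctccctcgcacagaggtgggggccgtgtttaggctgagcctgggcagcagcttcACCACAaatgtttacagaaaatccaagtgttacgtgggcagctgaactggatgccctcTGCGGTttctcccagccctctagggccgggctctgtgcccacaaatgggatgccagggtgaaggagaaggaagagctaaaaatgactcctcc
MARCHF3, chr5:127030559-127030808, minus strand: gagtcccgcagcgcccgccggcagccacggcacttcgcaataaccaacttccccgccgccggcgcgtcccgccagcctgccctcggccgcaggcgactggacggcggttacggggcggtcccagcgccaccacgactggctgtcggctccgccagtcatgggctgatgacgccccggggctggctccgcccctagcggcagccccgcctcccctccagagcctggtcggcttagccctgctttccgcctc

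At CSF2, which encodes the growth factor GM-CSF, the summit lay 28 bp upstream of the start site and the centre of its motif 27.5 bp from the summit, inside the peak. This summit carried 30 ChIP tags (exact Poisson interval 20.2 to 42.8) at a fold enrichment of 8.18. Here the pileup is the number of ChIP tags, each extended to 74 bp, that cover the summit, and the fold enrichment is that pileup over the local background, each after adding 1. At LOC124901147 the summit lay 84 bp upstream with 56 tags (42.3 to 72.7), TGCGGT was centred 5.5 bp from it, and TGTGGT on the other strand was 63.5 bp away. MARCHF3, a ubiquitin ligase gene, had its summit 213 bp upstream with 23 tags (14.6 to 34.5). In PTTG1 and FAF2 the motif was in the window but outside the peak. The summits at MGAT1 and FGF1 lay at internal start sites, 11763 and 11980 bp inside the annotated genes. The start at RNF145, at 159207648, was also internal, since the annotated 5′ end of that gene is at 159210053. A motif match is a match of letters and was not tested as a binding site.

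Peaks are called from pileup and input level, so counts of peaks depend on the values that selected the segment. The distal segment held many peaks for its length. It held 8.48 peaks per Mb (exact Poisson interval 7.76 to 9.24) over 61.5 Mb, against 3.38 (3.05 to 3.72) over the 120 Mb before it, a ratio of 2.51 (2.20 to 2.87). It made up 33.9% of the annotated length of the chromosome and held 56.3% of its peaks. Genes were also denser there, with 482 protein-coding genes or 7.84 per Mb against 421 or 3.51 per Mb. Per protein-coding gene the segment had 1.08 peaks (0.990 to 1.18) and the rest of the chromosome 0.962 (0.871 to 1.06), a ratio of 1.12 (0.985 to 1.28), an interval that includes 1. The order of the ratio turned when only peaks with a fold enrichment of at least 5 were counted, which gave 0.983 (0.805 to 1.20). With 53 clustered protocadherin genes left out of the gene count, and all 521 peaks kept, the ratio was 1.26 (1.11 to 1.44). Leaving out genes alone raises this ratio by construction. Alpha and gamma protocadherin genes overlap each other in the annotation, and beta genes do not.

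**Figure D1:**
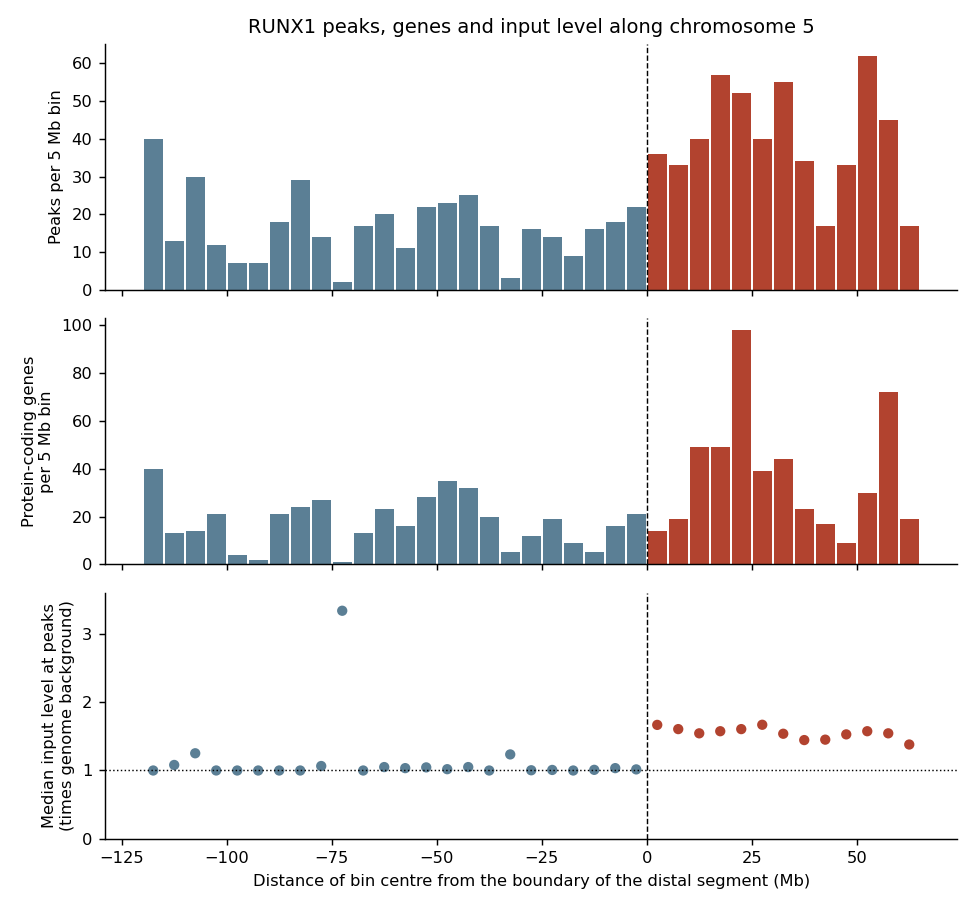
Peaks (top) and protein-coding genes (middle) in bins of 5 Mb along chromosome 5, and the median input level of the peaks in each bin (bottom, in multiples of the genome background, dotted line), against distance from the 120 Mb boundary (dashed line), with bins before it in blue and distal bins in red. The last distal bin is short, the 12 full distal bins held 17 to 62 peaks and 24 bins of the rest 2 to 40, and every full distal bin had a median input level between 1.45 and 1.67.

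In full bins of 5 Mb the segment held a median of 40 peaks and the rest of the chromosome 16.5, and 5 of the 12 distal bins held more peaks than any bin of the rest. Peaks per gene were uneven along the segment, as the profile of peaks and genes shows. The bin from 140 to 145 Mb, which holds the protocadherin clusters, had 52 peaks for 98 genes, or 0.531 per gene. The bin from 165 to 170 Mb had 33 peaks for 9 genes, or 3.67 per gene. The median over bins was 1.21 peaks per gene in the segment and 1 in the rest.

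The input level is the local background that the peak caller set against the pileup. It is the largest of the genome-wide background, which was 2.20 tags, and the scaled input in windows of 74 bp, 1 kb and 10 kb around the summit. Its median was 1.56 times the genome background at the distal peaks (order-statistic interval 1.51 to 1.64) and 1.02 times (1 to 1.05) in the rest of the chromosome. At the genome background itself sat 2 of the 521 distal peaks (0.384%), both in UNC5A, an axon guidance receptor gene, against 193 of 405 (47.7%) in the rest. Where the 10 kb window set the level, a median of 438 input tags lay in it (337 to 506, 137 peaks), while the genome background equals 324 tags in such a window. In the rest of the chromosome that window set the level at 17 peaks, with a median of 335 tags. A level of 1.67 was set at 89 peaks by 4 input tags in 74 bp, where 1 tag moves it in a coarse step, and at 7 peaks by 54 tags in 1 kb.

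The raised level began before the 120 Mb limit. The 4 peaks just outside it, with summits at 119382443, 119655235, 119753369 and 119796043, had input levels of 1.33, 1.67, 1.52 and 1.34 times the background, and the next one back, at 118937664 in DTWD2, sat at 1. The first 3 peaks inside it had levels of 1.45, 1.67 and 1.32. The first, with its summit at 120369381, was strong, with 40 tags (28.6 to 54.5), a fold enrichment of 9.77 and rank 395 of the whole list by −log10 q. It lay 94.9 kb from PRR16, the nearest protein-coding gene.

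Distal peaks were taller than those of the rest of the chromosome, and their fold enrichment was not. Their pileup ranged from 11 to 66 tags with a median of 21 (20 to 22), against 17 (16 to 17) in the rest and 18 in the whole list, a ratio of 1.24 to the rest. The median fold enrichment was 4.79 (4.70 to 4.92) against 5.00 (4.92 to 5.13) in the rest and 5.06 in the whole list, a ratio of 0.959 to the rest. A pileup of at least 20 tags was reached by 59.9% of the distal peaks (55.6 to 64.0%) and by 31.6% (27.3 to 36.3%) of the others. A fold enrichment of at least 10 was reached by 17 distal peaks, or 3.26% (2.05 to 5.16%), against 3.82% of the whole list and 2.47% (1.35 to 4.48%) of the rest of the chromosome. More copies of the DNA and more binding per copy cannot be told apart in tags.

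**Figure D2:**
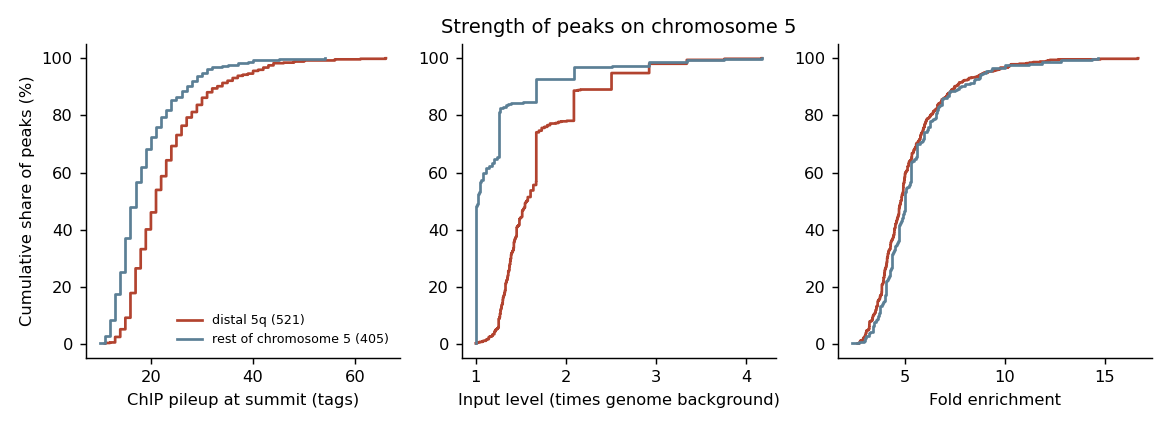
Cumulative share of peaks, in percent, against ChIP pileup (left, tags), input level (middle, multiples of the genome background) and fold enrichment (right), for the 521 distal peaks (red) and the 405 peaks of the rest of chromosome 5 (blue). The curves lie apart for pileup (medians 21 and 17) and input level (1.56 and 1.02) and close together for fold enrichment (4.79 and 5.00).

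The strongest sites lay in TIFAB and STING1, both genes of innate immune signalling. The peak in TIFAB (chr5:135448791-135449255), which encodes an inhibitor of TRAF6 signalling, carried 66 tags (51.0 to 84.0) at a fold enrichment of 16.7 and ranked 28 of the whole list. It lay inside the gene, 3.34 kb downstream of the start. A second peak in TIFAB, 1.18 kb from the start, carried 44 tags at a fold enrichment of 9.77. The peak in STING1 (chr5:139482249-139482743), the adaptor of cytosolic DNA sensing, carried 61 tags (46.7 to 78.4) at 14.8 and ranked 42. These were the only distal peaks among the 100 highest of the list, and 46 were among the first 1000. The intervals of the pileups of the TIFAB and STING1 peaks overlap.

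Further strong sites surrounded STING1. In ECSCR, an endothelial cell surface gene nearby, 3 peaks carried 29, 36 and 40 tags at fold enrichments of 6.42, 11.2 and 10.3. On the other side of STING1 a peak between genes, chr5:139511897-139512257, carried 50 tags (37.1 to 65.9) at 11.4. It lay 14.2 kb from UBE2D2, a ubiquitin-conjugating enzyme gene. SIL1, a nucleotide exchange factor of the endoplasmic reticulum chaperone BiP, held a peak of 48 tags (35.4 to 63.6), 140 kb downstream of its start. The window from 139 to 140 Mb, with these genes, held 23 peaks.

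The other peaks of the strongest 15 were spread over the segment and carried 42 to 56 tags. SH3RF2, which encodes a ubiquitin ligase of the POSH family, had one of 50 tags (37.1 to 65.9) at a fold enrichment of 12.2. SH3TC2, an endosomal recycling gene of peripheral nerve, had 56 tags at 10.2, with an input level of 2.09 that rests on 5 input tags. CYSTM1 had 48 tags at 12.7, and TMCO6 46 tags at 9.77. The peak at LOC124901147, whose sequence stands above, had 56 tags at 8.75, over a background of 6 input tags in 74 bp. PPARGC1B, a coactivator of mitochondrial gene expression, had 44 tags at 11.1, SLC25A48, a mitochondrial carrier, had 42 at 11.8, and SLC36A1, a lysosomal amino acid transporter, had 43 at 10.3. A peak 35 bp beyond the end of COL23A1, a transmembrane collagen gene, had 43 tags at 12.3, and one 20.6 kb before JADE2, a chromatin regulator gene, had 44 at 10.2. The intervals of the pileups from 42 to 56 tags overlap, so their order is not resolved by counting error.

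**Figure D3:**
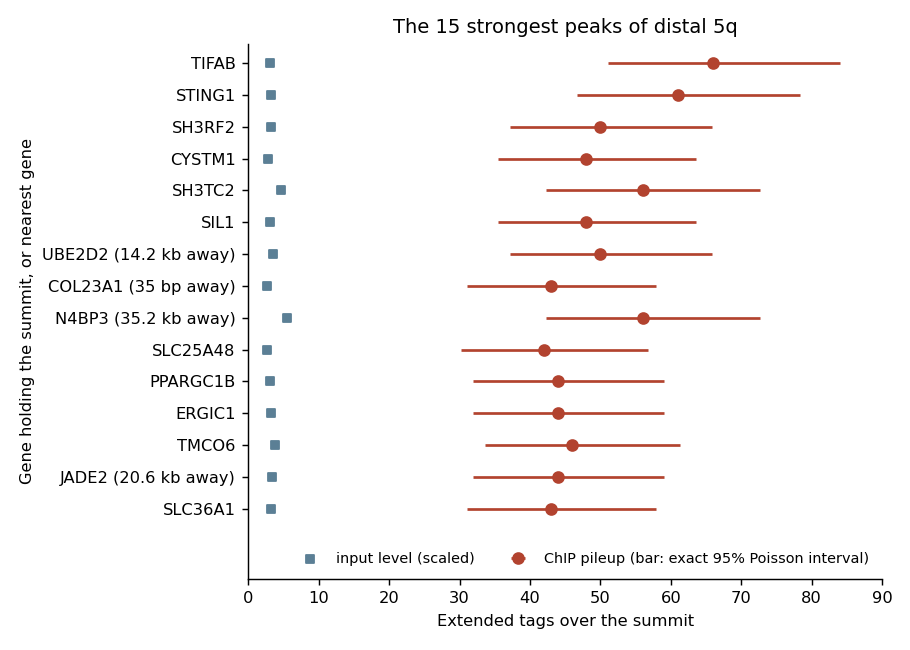
ChIP pileup (red points, tags, bars are exact 95% Poisson intervals) and scaled input level (blue squares, tags) at the 15 distal peaks with the highest −log10 q, in that order from the top, named by the gene that holds the summit or else the nearest protein-coding gene. Pileups ran from 42 to 66 tags, and every input level lay far below its pileup.

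Most of this binding lay away from start sites of protein-coding genes. Distances were taken to the nearest start of a protein-coding gene, which is a listed start or the annotated 5′ end, and for the 47 of 482 genes of the segment whose strand was not given either end was counted, so some of the counts can rest on ends that are not starts. Of the strongest 15 peaks, 11 lay inside a protein-coding gene and 10 lay over 10 kb from such a start. Among these 10 is the peak at LOC124901147, which lay 84 bp from the start of that lncRNA gene. One of the 15, the peak in STING1, lay within 1 kb of a protein-coding start or end, 252 bp inside an end of that gene. Of all 521, 252 lay inside a protein-coding gene, or 48.4% (44.1 to 52.7%), against 38.5% (33.9 to 43.3%) in the rest of the chromosome and 47.3% in the whole list. Within 1 kb of a start lay 35, or 6.72% (4.87 to 9.20%), against 5.19% (3.42 to 7.80%) in the rest and 7.60% of the list, chromosome 8 not counted. Of these 35, 31 lay at genes whose strand was given and carried at most 34 tags, beside PCDH1, and the other 4 lay at an end of a gene whose strand was not given. The median of the 35 was 20 tags, and 1 of them, in STING1, had a fold enrichment of at least 10. The 271 peaks at 10 to 100 kb had a median of 22 tags and held 10 of the 17 with a fold enrichment of at least 10. Over 100 kb from such a start or end lay 23.6% of the distal peaks, 40.0% of those in the rest and 24.3% of the list, chromosome 8 not counted. Genes are sparser in the rest, and their part in this difference was not tested. One of the strong sites away from genes lay 14.5 kb from SPARC, a secreted matrix glycoprotein gene, with 42 tags (30.3 to 56.8) at a fold enrichment of 10.2.

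Neighbouring distal peaks lay closer together than those of the rest. More peaks per Mb shorten the gaps by construction, and clustering beyond the density was not tested. The median gap between neighbouring summits was 40.2 kb, against 121 kb in the rest of the chromosome, and 25.8% of gaps were under 10 kb against 13.4%. Of 62 windows of 1 Mb, 9 held at least 15 peaks and 2 held none. The densest, from 172 to 173 Mb, held 36 peaks for 8 protein-coding genes. Without it the ratio of densities to the rest of the chromosome was 2.38 (2.08 to 2.72).

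**Figure D4:**
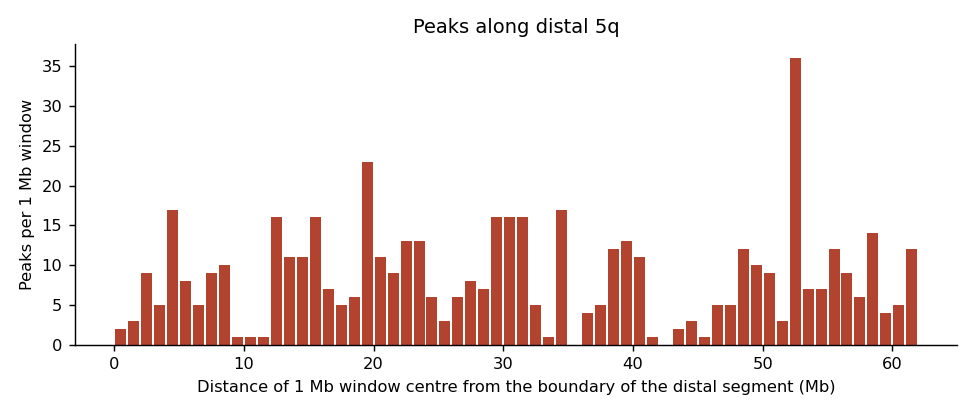
Number of peaks in each of the 62 windows of 1 Mb of the distal segment, against distance of the window centre from the 120 Mb boundary in Mb (the last window is short). The median is 7 peaks, and the window with DUSP1 and ERGIC1 stands highest with 36.

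The densest window opened with STK10, a kinase of lymphocytes and the cortical cytoskeleton, passed SH3PXD2B, an adaptor of invadopodia, and DUSP1, and ended in ERGIC1. ERGIC1, which encodes a membrane protein cycling between endoplasmic reticulum and Golgi, held 10 peaks over 118 kb, the most of any gene of the segment, or 8.44 per 100 kb. Their pileups were 42, 34, 21, 19, 21, 21, 18, 28, 40 and 44 tags in order of position, with the peaks of 40 and 44 tags side by side. STK10 held 6 peaks with 16 to 36 tags, or 4.11 per 100 kb. DUSP1, a phosphatase that switches off MAP kinases, had 4 peaks within 5 kb. The tallest, with 37 tags (26.1 to 51.0) at a fold enrichment of 8.13, lay 1.40 kb upstream of the start, and the one at the start itself, 41 bp downstream, had 19 tags (11.4 to 29.7) at 4.88.

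The next genes by number of peaks were FSTL4 with 9, ARHGAP26 and GALNT10 with 8 each, and WWC1 with 7. FSTL4, a follistatin-like gene, spans 646 kb and had 1.24 peaks inside it per 100 kb, the strongest by −log10 q with 26 tags. ARHGAP26, a GTPase-activating protein of focal adhesions, had 1.74 per 100 kb and one peak of 41 tags (29.4 to 55.6) at a fold enrichment of 9.40. GALNT10, which starts mucin-type O-glycosylation, had 3.47 per 100 kb and a tallest peak of 43 tags over an input level of 2.09. WWC1, the Hippo pathway scaffold KIBRA, had 3.32 per 100 kb with 13 to 32 tags. COL23A1 had 6 peaks, as did STK10. With 5 peaks each, 11 genes were tied, of which SH3RF2, SLC25A48 and SLC36A1 held the strongest by −log10 q. Per length, ERGIC1 was bound most densely of the 10 genes named.

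Of the 482 protein-coding genes of the segment, 182 had a summit inside them or within 5 kb, or 37.8% (33.5 to 42.2%). The share was 25.9% (21.9 to 30.3%) in the rest of the chromosome and 24.8% over all 20033 protein-coding genes. Without the clustered protocadherins it was 34.0% (29.7 to 38.6%). A single peak was counted for 80 of the 182 genes, 2 or more for 102, and 5 or more for 18. The genes of the segment had a median length of 27.6 kb, against 48.0 kb in the rest and 24.1 kb over all chromosomes.

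**Figure D5:**
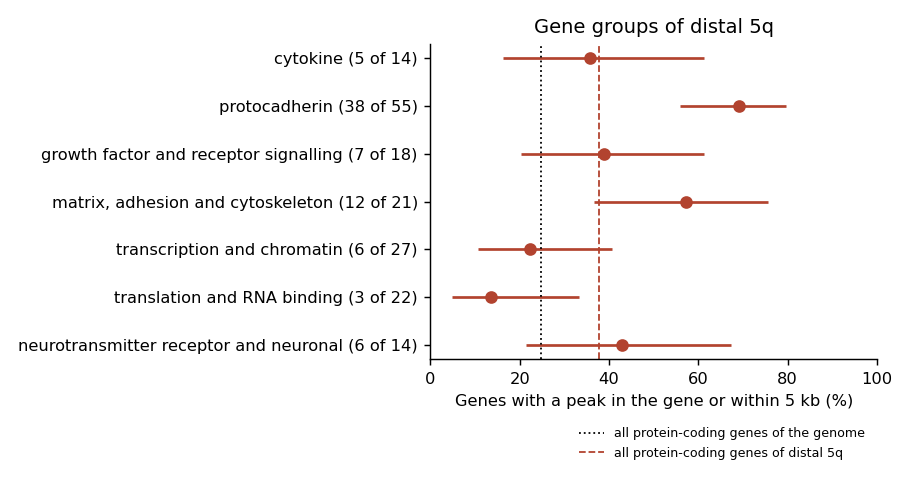
Share of the genes of each group, in percent, with a summit in the gene or within 5 kb (points, bars are 95% Wilson intervals, counts in the labels), beside the share over all protein-coding genes of the genome (dotted, 24.8%) and of the distal segment (dashed, 37.8%). Protocadherin genes stand highest at 69.1% and genes of translation and RNA binding lowest at 13.6%, and neighbouring protocadherin genes share peaks.

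Among 14 cytokine and immune genes 5 had a peak, from 8 peaks with a median of 20.5 tags and 4.86-fold enrichment, against 21 tags and 4.79-fold over all members. Besides the promoter peak CSF2 had 2 peaks upstream, 2.80 and 4.26 kb from the start, with 19 and 20 tags. IL9, a T cell cytokine gene, had one peak of 28 tags at a fold enrichment of 5.18. IL12B, a subunit of interleukins 12 and 23, had one of 17 tags. CSF1R, the receptor of the macrophage growth factor, shared its single peak of 18 tags with its neighbour PDGFRB. IL3, IL4, IL5, IL13, IRF1, TNIP1, HAVCR1, HAVCR2 and CD14 had none within 5 kb.

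In growth factor and receptor signalling 7 of 18 genes had a peak, from 18 peaks with a median of 24.5 tags and 5.34-fold enrichment. HBEGF, an EGF receptor ligand, held one of 41 tags (29.4 to 55.6) at a fold enrichment of 8.98, 6.76 kb downstream of its start. FGF1, a fibroblast growth factor, held one of 43 tags, but its input level was 2.92 and its fold enrichment 5.92. NRG2, an ERBB ligand gene, held 3 peaks with 25, 42 and 27 tags, the middle one also over an input level of 2.92. PPP2R2B, a regulatory subunit of protein phosphatase 2A, had one of 29 tags. Without a peak were FGF18, FGFR4, FLT4, SPRY4, CXCL14, WNT8A, SMAD5, CSNK1A1, GRK6, MAPK9 and PPP2CA.

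Genes of matrix, adhesion and cytoskeleton had peaks in 12 of 21, from 38 peaks with a median of 20.5 tags and 4.20-fold enrichment. These genes are long, with a median of 104 kb. DOCK2, a Rac activator of blood cells, had 5 peaks with a tallest of 37 tags at a fold enrichment of 7.58. SH3PXD2B had 5, the strongest by −log10 q with 29 tags. TGFBI, a secreted adhesion protein, had 3 low peaks of 18, 19 and 19 tags, and SPOCK1, a secreted proteoglycan, 3 of 17, 25 and 18. DIAPH1, an actin nucleator gene, had 3 peaks, and ABLIM3, an actin-binding gene, had one of 31 tags. FBN2, SEPTIN8, ADAMTS2 and PDLIM4 had one each with 15, 15, 13 and 11 tags.

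Among neuronal and receptor genes 6 of 14 had a peak, from 17 peaks with a median of 22 tags. TENM2, a synaptic adhesion gene, had 5 with a tallest of 40 tags at a fold enrichment of 7.33. By −log10 q, the strongest of 2 in ADRA1B, an adrenergic receptor gene, had 35 tags at 7.70. That of 4 in SLIT3, a guidance factor gene, had 28 tags at 6.64. KCNIP1 had 4, and GRIA1 had one.

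Transcription and chromatin genes had peaks in 6 of 27, from 13 peaks with a median of 19 tags. PRDM6, a chromatin repressor gene, had one of 38 tags (26.9 to 52.2) at a fold enrichment of 6.97. ZNF608, a zinc finger gene, had 5 with up to 30 tags, and EBF1, a B cell factor gene, had 3. The strongest in EBF1 by −log10 q had 25 tags. EGR1, an immediate early factor, had one of 17 tags 574 bp downstream of its start, and JADE2 one of 19. NR3C1, the glucocorticoid receptor, had one of 26 tags over an input level of 3.76, at a fold enrichment of 2.91. Genes of translation and RNA binding had peaks in 3 of 22, namely LARP1 with 3, RARS1 with one of 16 tags and CPEB4 with one of 26. The strongest in LARP1 by −log10 q had 21 tags. The CPEB4 peak also lay over an input level of 3.76, at a fold enrichment of 2.91. RPS14, NPM1 and RACK1 had none.

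The protocadherin count rested on few peaks. Of 55 protocadherin genes 38 had a peak, from 10 distinct peaks. No gene of the beta cluster had a peak within 5 kb. In the alpha cluster 2 summits, at 140926414 with 28 tags (18.6 to 40.5) and at 140927166 with 17 tags, lay inside nearly the whole set of overlapping alpha genes, both of them within 1 kb of the start of PCDHAC1. A further alpha summit, of 14 tags, counted only for PCDHA1, PCDHA2, PCDHA3 and PCDHA4. The gamma genes were counted through 2 summits beyond the end of the cluster, at 141513945 and 141514587 with 20 and 22 tags, which also count for DIAPH1. Outside the clusters PCDH1, an epithelial protocadherin, had 4 peaks of 21, 17, 34 and 27 tags, the tallest 476 bp upstream of the annotated gene at a fold enrichment of 8.92, and PCDH12 had one of 24 tags. Gene length and overlap differ between the groups, and their part in these shares was not tested.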

How the data were processed

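RUNX1 ChIPseq and input DNA were sequenced from MCF10A cells, 1 library of each. The authors called peaks in the ChIP library with MACS 2.1.2, using the input as control and a q-value cutoff of 0.05. Tags of 54 bp were extended to 74 bp per the file headers, and each position and strand kept no more than 1 tag, so a pileup cannot exceed 148. The submitters' processing notes name Bowtie2 and hg38. The deposited pileup is a signal in tags, the deposited fold enrichment is a ratio of pileup to local background, each after adding 1, and the deposited q is a −log10 value.

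Peaks of chromosome 5 were split at a summit of 120 Mb, and the length of the distal segment was taken to the end of the last annotated gene. The input level was recovered as (pileup + 1)/(fold enrichment) − 1. It matched a whole number of input tags in one window, or the genome background, within 6e-05 tags for 100% of the peaks of chromosome 5. Genes came from RefSeq (GRCh38.p14) by their annotated ends, with a side distance of 5 kb, and a gene was placed by its midpoint. Start sites came from the promoter windows and the annotated 5′ ends. Strand came from those windows, and both ends were used for genes without one, a choice made after seeing the data. Chromosome 8 was not analysed here for start sites. Intervals were Wilson for shares, exact Poisson for pileups and densities, exact binomial for ratios of rates, and order-statistic for medians (scipy 1.17.1, numpy 2.4.6, pandas 2.3.3, Python 3.11.15). The scripts were tested on simulated data. Genes named were those that hold, or lie nearest to, the strongest 15 peaks by −log10 q, the 10 genes with the most peaks, genes of 7 lists with a peak, and peaks beside the boundary. UNC5A, ECSCR, SPARC, the genes with a summit in a promoter window and list genes without a peak were named after their values were seen. Members and lists were chosen with earlier results of these data known. Some genes counted in the lists are not reported here by name.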

Additional observations from a re-analysis of the deposited data

How the results depend on the processing

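No paired analysis was possible because there was 1 ChIP and 1 input library, and for the same reason no replicate could be left out. Of 37 alternatives over 8 results, 26 stayed inside the interval of the reported value, 10 left it and 1 turned its direction. The density ratio of 2.51 became 2.20 at a fold enrichment of at least 5, 4.76 at a pileup of at least 20 tags and 3.32 (1.44 to 8.11) at a fold enrichment of at least 10. The ratio of peaks per gene of 1.12 turned to 0.983 at a fold enrichment of at least 5, became 2.13 at a pileup of at least 20 tags, and was 1.75 with all annotated genes in place of protein-coding ones. A pileup minimum favours the segment by construction, since its peaks were taller at a like fold enrichment. The share of genes with a peak, 37.8%, was 25.9% with gene bodies alone, 66.2% within 50 kb and 19.5% at a fold enrichment of at least 5. The share of summits inside a gene, 48.4%, was 64.3% with all genes. The median input level of 1.56 was 1.35 at the 137 peaks whose background came from the 10 kb window. Moving the boundary by 5 Mb either way, a q limit of 0.01 and merging of peaks within 1 kb kept each result they were applied to inside its interval. The minimum of 10, the removal of the densest window or of clustered protocadherins, the 10 kb window and the motif variant TGCGGT were added after seeing the data. With TGCGGT allowed, 7 of 12 genes with a summit in a promoter window held a motif, or 58.3% (32.0 to 80.7%). The share was 22.9% of all 27305 genes with a window and 26.9% of the 700 genes of the segment. It was 64.7% of the 416 genes anywhere with a summit in a window. Single peaks here rest on 11 to 66 tags, so many neighbours in rank cannot be ordered.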

Other observations

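Of 375 lncRNA genes of the distal segment 91 had a summit inside them or within 5 kb, or 24.3% (20.2 to 28.9%), beside 14.8% of 18303 lncRNA genes over all chromosomes. No test of this was made. Of 40 miRNA genes of the segment 3 had one, beside 6.90% of 1913 over all chromosomes, and of 20 snoRNA genes 2, beside 5.42% of 1199. MIR3655 lay 4850 bp from the strong summit in TMCO6, which carried 46 tags (33.7 to 61.4). MIR378H, of the miR-378 family, lay 1125 bp from a summit of 28 tags (18.6 to 40.5) at a fold enrichment of 5.18. MIR4638 had 3 summits within 5 kb, the nearest 133 bp away with 19 tags (11.4 to 29.7) at 4.28. These genes were named after their values were seen.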
